A study of Solanum lycopersicum with 24 samples.

Results

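A stretch of tomato chromosome 11 near 18.8 Mb held a dense cluster of N1-methyladenosine (m1A) peaks in every fruit library. Its members were all peaks of the circRNA and mRNA lists that lay on chromosome 11 between 18.75 and 18.87 Mb, whatever their values, and a peak found in both lists of a library with the same start and end was to be counted once. The rule found 257 peaks of 4268 in all (6.02%), 183 from the circRNA lists and 74 from the mRNA lists, and no peak was in both with identical ends. No lncRNA peak lay in the window. All 257 are accounted for below, and no filter on low values was applied.

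The study immunoprecipitated fragmented fruit RNA with an m1A antibody and sequenced it, in 12 IP libraries and 12 input libraries, and the authors called peaks for each IP library separately. The groups, with 3 libraries each, were Nr O (Never-ripe fruit of the late stage, orange, 6 days after breaker), Nr G (Never-ripe, green, about 39 days after anthesis), AC Br+6 (wild-type Ailsa Craig, red, 6 days after breaker) and AC MG (Ailsa Craig, mature green, about 39 days after anthesis). Never-ripe carries a homozygous mutation in an ethylene receptor gene in the Ailsa Craig background. Ethylene is the hormone that drives tomato ripening, and Never-ripe fruit respond to it only weakly. The stages of Nr O and Nr G were read from the letters in the titles and the series design. The labels do not say how many fruits or plants went into a library, so p-values measure the spread between these libraries.

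m1A is adenosine with a methyl group on the ring nitrogen that normally takes part in base pairing, so it blocks pairing at that base. It is best known from transfer RNA and from the RNA of the large ribosomal subunit. Circular RNAs (circRNAs) form when a downstream splice site of a transcript is joined back to an upstream one, and circles are usually identified from reads that cross such a junction. The circRNA lists used here hold peaks that lie within the spans of circles. The genes for ribosomal RNA (rRNA) lie in long arrays of nearly identical copies in plant genomes, so a short read from them can match many places. How the authors placed such reads is not given in the sources used here, and the values below therefore belong to the cluster as aligned, with the exact copy uncertain. No sequence is printed because no genome of the files' build, SL3.00, was used.

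The lists named 3 circles in the cluster. The circle with host Solyc11g027645, on the plus strand of chromosome 11 from 18750703 to 18845571 (94869 bases), held 151 of the 183 circRNA peaks (82.5%), with 10 to 15 in each library. The circle with host Solyc11g027760, also on the plus strand, from 18796389 to 18868400 (72012 bases), held 20 peaks. The circle with host SSU_rRNA_eukarya, on the minus strand from 18797378 to 18869388 (72011 bases), held 12 peaks, 1 in each library. SSU_rRNA_eukarya is the family name of the small ribosomal subunit RNA, and this was the only host in the cluster named for rRNA. In the whole series 7 circles with rRNA hosts held 132 peaks, and 120 of these lay outside the cluster.

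The spans of the circles overlapped, and 2 of them had almost the same length. The circle named for rRNA started 989 bases and ended 988 bases after the Solyc11g027760 circle, so 2 circles of opposite strand differed in span by 1 base. The length that the lists predicted for each of the 3 circles equalled its whole genomic span. Of the circRNA peaks, 100 lay inside the span of the Solyc11g027760 circle, 80 of them listed under the Solyc11g027645 circle and 20 under its own. The span of the minus-strand circle named for rRNA held 109, with 77 listed under the Solyc11g027645 circle and 12 under its own. The other peaks there were listed under the Solyc11g027760 circle. All circles were catalogued as sense overlapping, and no count of junction reads was used here. A peak within a circle's span is thus not shown to come from that circle.

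The mRNA peaks lay in 5 protein-coding gene models of the ITAG annotation. Solyc11g027665 had 24 peaks, Solyc11g027693 had 19, Solyc11g027690 had 12, Solyc11g027697 had 11 and Solyc11g027770 had 8. None of the 74 entries had a description or an NCBI gene number. None of the 7 host genes with Solyc names, hosts of the plus-strand circles included, was found in the reference table, so no function is given for them. The host SSU_rRNA_eukarya was not looked up there. Solyc11g027665 and Solyc11g027690 were called in all 12 libraries. Solyc11g027693 was called in all but AC MG replicate 2, Solyc11g027697 in all but Nr O replicate 3, and Solyc11g027770 in 8 libraries.

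Most mRNA entries were pieces of circRNA entries. Of the 74, 73 carried the same MACS peak number and the same fold enrichment as a circRNA entry of that library and lay inside it, so the 257 peaks rest on 184 peak numbers. The entry of Solyc11g027665 from 18770742 to 18771208 had the same ends in all 12 libraries, whereas the circRNA entries around it had 7 different pairs of ends. The 1 mRNA entry with no circRNA partner was in Solyc11g027693 in AC MG replicate 1, from 18810018 to 18810322, with a fold enrichment of 9.10. The circRNA and mRNA lists are therefore not independent of each other at these genes.

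Joining peaks of all libraries that overlapped by at least 1 base gave 17 positions, called P1 to P17 from low to high coordinate. They covered 23405 bases, 19.5% of the window, and were 653 to 3002 bases long with a median of 1399. The gaps between them ran from 245 to 11242 bases with a median of 6858.5. By the strand of the circle each was listed under, 16 positions were on the plus strand and P17 was on the minus strand. P7 to P16, though listed under plus-strand circles, also lay inside the span of the minus-strand circle. The strand is thus only that of the listed circle, and the mRNA lists give none.

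**Figure D1:**
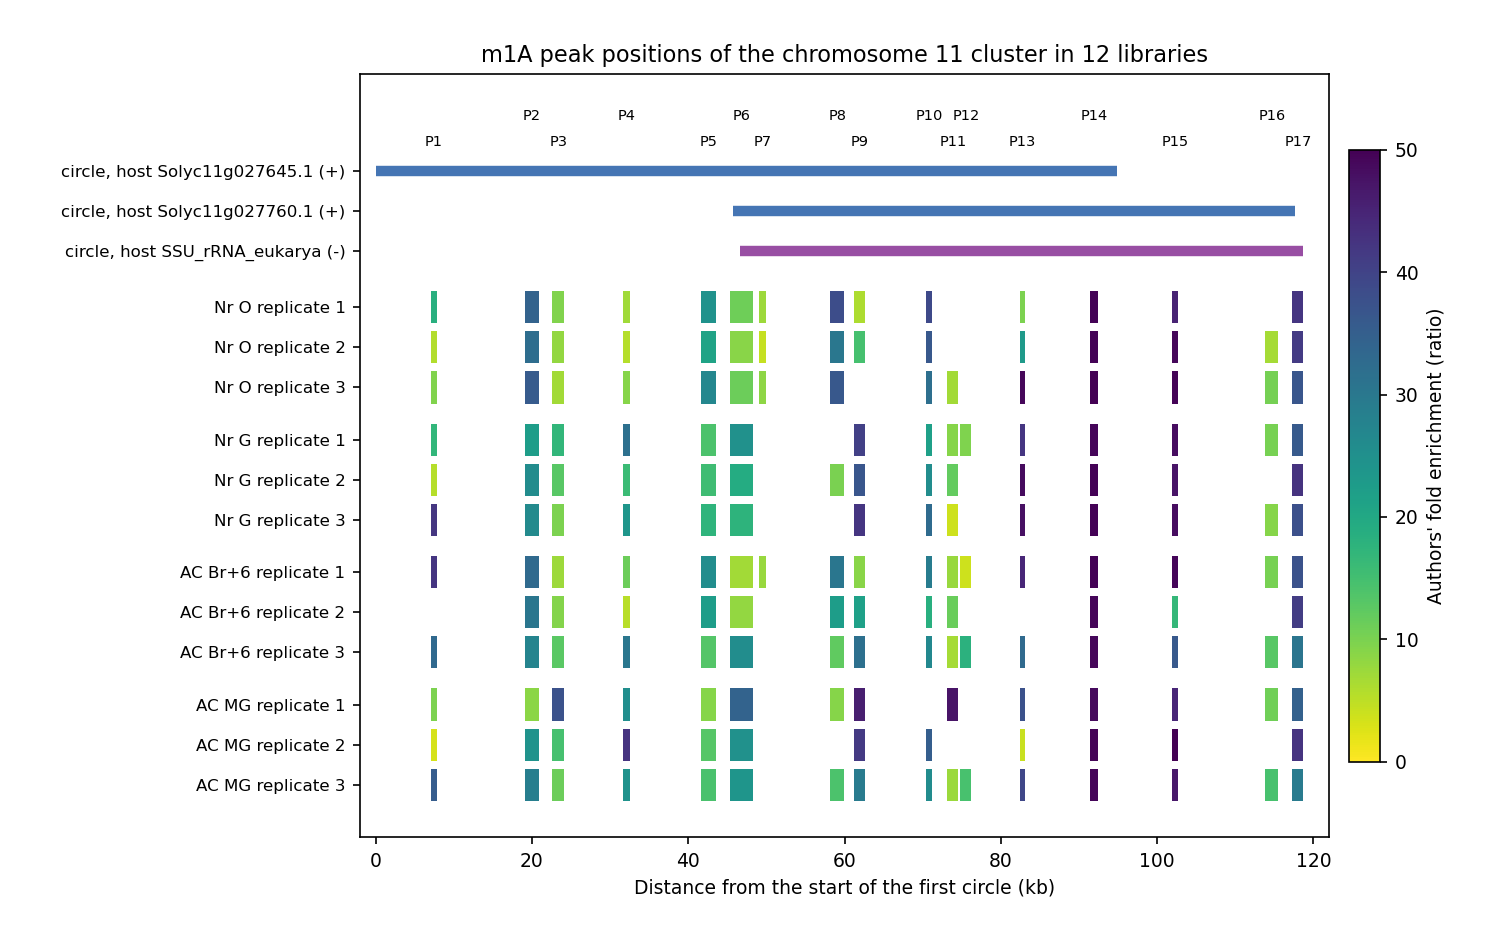
Map of the cluster, with distance in kb from the start of the first circle on the x axis. Horizontal bars are the 3 circles (blue plus strand, purple minus strand); below them each library has a block at every position where it had a peak, drawn at the joined extent of that position and coloured by the authors' fold enrichment (highest peak of the library there). P14 is dark in all 12 libraries, and P7 and P12 are filled in 4 libraries each.

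The positions recurred in nearly every library. Of the 17, 8 were called in all 12 libraries, 4 in 11, 2 in 9, 1 in 8 and 2 in 4, and none in fewer than 4. Over the genome 72 of 2454 positions (2.93%) were called in all 12, and all shares over the genome given here include the cluster's own positions. Each library had between 12 and 17 of the 17 positions, and 15 positions were called in at least 1 library of each of the 4 groups, against 4.89% of the 2454 positions. With the stricter demand of the same start and end, 1 of 150 distinct entries of the cluster was in all 12 libraries, that of Solyc11g027665 above. Over the genome 30 of 3138 (0.956%) were, so by this demand the cluster did not stand out. Counting only peaks with a score at or above the median of all peaks, 4 of 17 positions were in all 12, against 3.65% of 1150 positions.

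Outside the edges of the window the nearest neighbours were also recurrent. Below it, a peak of Solyc11g027630 from 18725190 to 18725360 was called in 12 libraries with a median fold enrichment of 16.97. Above it, a peak of Solyc11g027860 from 19167816 to 19167937 was called in 12 libraries with a median of 50. The outermost positions inside were P1 (18757779 to 18758584, median 17.1) and P17 (18868025 to 18869388, median 37.6).

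The peak lists differed greatly in length, and AC Br+6 replicate 3 had the longest. A library had 138 to 902 distinct peaks in its circRNA and mRNA lists. AC Br+6 replicate 3 had 902, against 223 and 270 in replicates 1 and 2. Over the 8 positions called in all 12 libraries, the fold enrichments of AC Br+6 replicate 3 correlated with those of its 2 fellow replicates at Spearman's rho 0.476 and 0.833, with the Nr G libraries at 0.929 to 0.976, and with the AC MG libraries at 0.524 to 0.976 (median 0.929). At these positions it was thus nearer in order to most green libraries than to AC Br+6 replicate 1 or 2. It was not alone in this. AC Br+6 replicate 1 correlated at 0.881 with Nr G replicate 3 and with AC MG replicate 3, against 0.786 with AC Br+6 replicate 2. AC MG replicate 1, with 727 peaks, correlated with its fellow replicates at 0.667 and 0.476. AC Br+6 replicate 3 is used here under its label, and whether the label is right was not tested. These rho values are descriptions over positions of 1 region, which are no replicates. NR (Solyc09g075440), the gene mutated in Never-ripe, had a peak in 0 of 12 libraries, so the lists do not check the genotype. The fruit gene 2A11 was called in 9 libraries, E8 in 4, PG2A in 3 and PSY1 in 2. Sequencing depth is unknown, since the lists hold no read totals.

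Fold enrichment is the authors' ratio for each peak, with a highest value of 50 in all lists. It was used to describe and rank peaks within a library and was not tested between libraries. Where a library had more than 1 peak at a position, the highest was taken.

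P14 was the strongest position in the cluster. It lay on chromosome 11 from 18842067 to 18843171, in the span of the Solyc11g027645 circle, and took in the mRNA peak of Solyc11g027697 (18842267 to 18842405). Its fold enrichment was 49.7, 49.7 and 49.8 in the Nr O libraries, 49.2, 49.7 and 49.7 in Nr G, 49.7, 49.4 and 49.2 in AC Br+6, and 48.7, 49.6 and 49.2 in AC MG. All 12 values were within 1.02-fold of each other and close to 50, the highest value in any list. It ranked first of the 8 constant positions in 11 of 12 libraries and second in AC MG replicate 2.

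P15 and P13 followed by median fold enrichment. P15 (18852595 to 18853391, in the Solyc11g027760 circle, with no mRNA entry) had 45.1, 49.2 and 49.4 in Nr O, 48.4, 47.4 and 48.3 in Nr G, 49.4, 16.7 and 36.3 in AC Br+6, and 44.5, 50 and 46.8 in AC MG. The groups overlapped, and AC Br+6 replicate 2 was the low value. P13 (18833150 to 18833802) was called in 11 libraries, all but AC Br+6 replicate 2. Its values were 9.92, 23.0 and 49.1 in Nr O and 42.4, 48.6 and 47.9 in Nr G. In AC Br+6 they were 44.6 and 33.0 in replicates 1 and 3, and in AC MG 37.7, 4.18 and 39.3. Within AC MG the highest of the 3 values at P13 was 9.41 times the lowest, and within Nr O 4.95 times.

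P17, the only position listed under the circle named for small subunit rRNA, was among the steadiest. It was called in all 12 libraries with 42.3, 41.4 and 36.7 in Nr O, 36.1, 42.7 and 37.9 in Nr G, 37.4, 41.2 and 30.7 in AC Br+6, and 34.7, 42.5 and 29.3 in AC MG. The groups overlapped fully, and the highest value was 1.45 times the lowest. All 12 entries ended at base 18869388, the last base of the circle. Of these, 9 started at 18868025 and were 1364 bases long, and the shortest was 344 bases.

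At the other constant positions, P2 and P5 had higher values in late Never-ripe fruit, and P3, P4 and P6 had lower ones. P2 (18769827 to 18771547, with the 467-base entry of Solyc11g027665) had 34.2, 32.4 and 35.8 in Nr O, against 22.3, 25.8 and 26.3 in Nr G. P5 (18792352 to 18794256, with Solyc11g027690) had 24.6, 21.0 and 26.9 in Nr O, against 14.2, 15.6 and 17.4 in Nr G. At both, the 3 Nr O values exceeded all 3 Nr G values.

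P4 (18782336 to 18783253) moved the other way, with 7.18, 5.60 and 9 in Nr O, against 31.7, 15.9 and 23.7 in Nr G. P6 (18795998 to 18798999) had 11.1, 8.81 and 11.2 in Nr O, against 24.8, 19.3 and 17.7 in Nr G. P3 (18773273 to 18774844, with the shorter entry of Solyc11g027665) had 9.41, 8.05 and 7.02 in Nr O, against 17.2, 13.1 and 9.80 in Nr G. At these 3 positions the values of the 2 groups did not overlap, Nr O being the lower. Of the 11 cluster positions measured in all 6 libraries, 2 were thus higher and 3 lower in Nr O without overlap. Over the genome 4 (4.94%) and 9 (11.1%) of 81 positions were, and these counts include those of the cluster. With shares of that size in the background, 3 against 3 libraries and no test between lists, these orders are descriptions.

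In the wild type, the same positions were split between libraries of 1 group. P4 had 11.3, 5.30 and 30.3 in AC Br+6, against 25.5, 42.5 and 24.6 in AC MG. P6 had 6.87, 8.14 and 25.7 in AC Br+6, against 34.3, 24.8 and 23.9 in AC MG. At both, AC Br+6 replicates 1 and 2 lay below all AC MG libraries and replicate 3 lay among them.

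P2 had 32.8, 30.3 and 27.5 in AC Br+6, against 8.61, 24.4 and 28.8 in AC MG, and P5 had 25.8, 22.4 and 13.4, against 9.15, 13.1 and 14.4. P3 had 7.35, 9.29 and 12.9 in AC Br+6, against 37.3, 14.6 and 11.3 in AC MG. The groups overlapped at each of these positions through AC Br+6 replicate 3. Of the 9 positions measured in all 6 libraries, 0 were separated in either direction, against 0% higher and 1.23% lower over 81 positions of the genome. Without AC Br+6 replicate 3, left out after its values were seen, 2 were higher (P2 and P5) and 4 lower (P3, P4, P6 and P9), against 7.41% and 11.1% of 81 positions. That result thus rests on 1 library, and with 2 libraries in a group separation is also easier to reach.

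**Figure D2:**
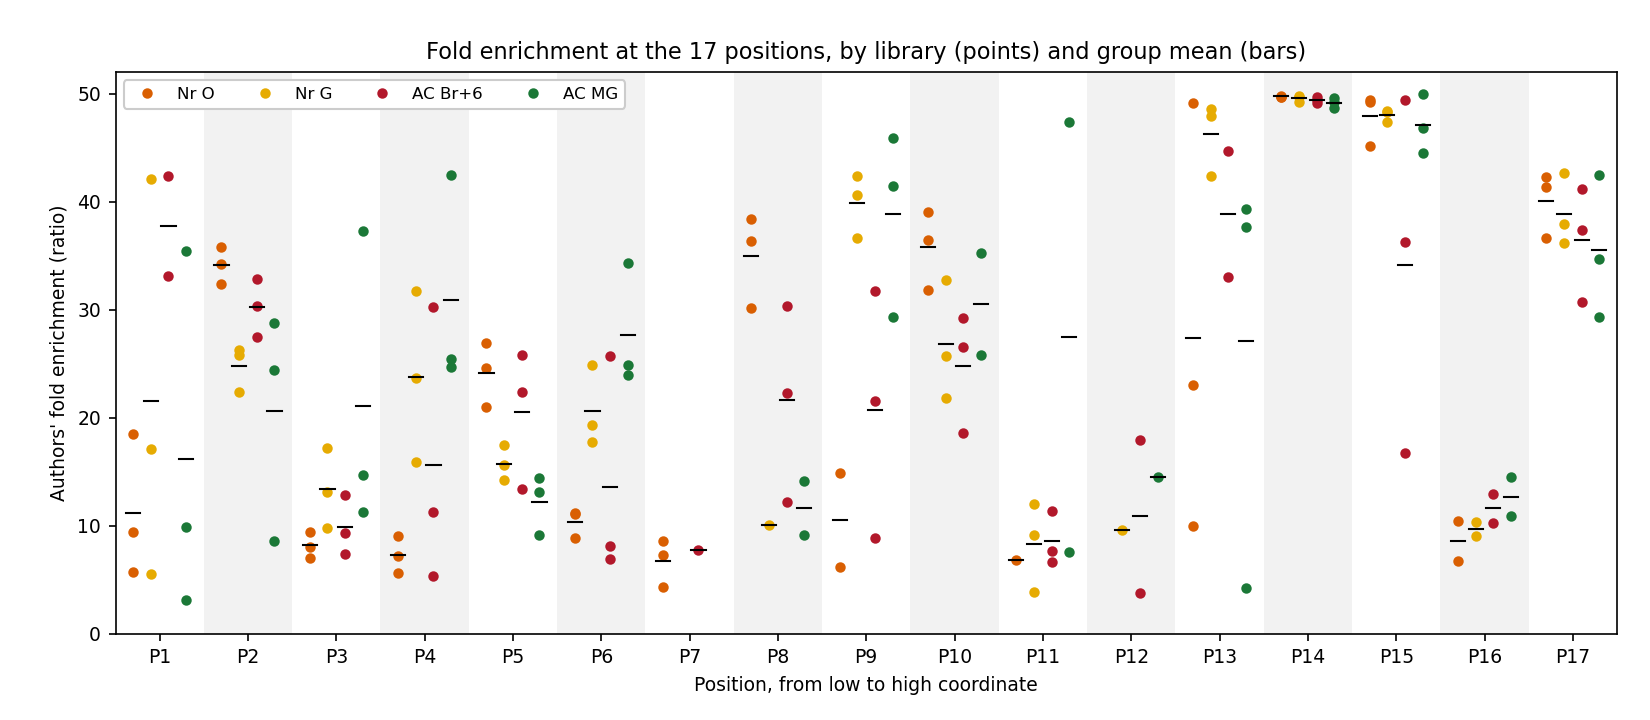
The authors' fold enrichment (y axis, ratio) at the 17 positions (x axis, low to high coordinate) for each library (points, coloured by group) with the mean of each group (short bars). At P4 and P6 the 3 Nr O points lie below all Nr G points, and AC Br+6 replicate 3 (30.3 and 25.7) lies far above the other AC Br+6 points.

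A ratio of 2 positions within a library does not depend on the scale of that library's list. The pairs below were chosen after their values were seen. The ratio of P4 over P2 was 0.210, 0.173 and 0.252 in Nr O, against 1.42, 0.615 and 0.901 in Nr G. In the wild type it was 0.344, 0.175 and 1.10 in AC Br+6, against 2.96, 1.74 and 0.856 in AC MG. The ratio of P6 over P5 was 0.452, 0.419 and 0.415 in Nr O, against 1.74, 1.24 and 1.02 in Nr G. It was 0.267, 0.364 and 1.92 in AC Br+6, against 3.75, 1.895 and 1.66 in AC MG. Since P4 and P6 were lower and P2 and P5 higher in Nr O than in Nr G, these ratios had to separate them. They restate the values above and add no support. In 5 of the 6 late libraries both of these ratios lay below those of all 6 green libraries, and AC Br+6 replicate 3 lay within the green range. Another pair did not show this order. The ratio of P9 over P10 was 0.159 and 0.407 in Nr O replicates 1 and 2, against 1.86, 1.42 and 1.29 in Nr G. It was 0.303, 1.16 and 1.19 in AC Br+6, against 1.175 and 1.14 in AC MG replicates 2 and 3, so that AC Br+6 replicates 2 and 3 both lay within the green range.

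**Figure D3:**
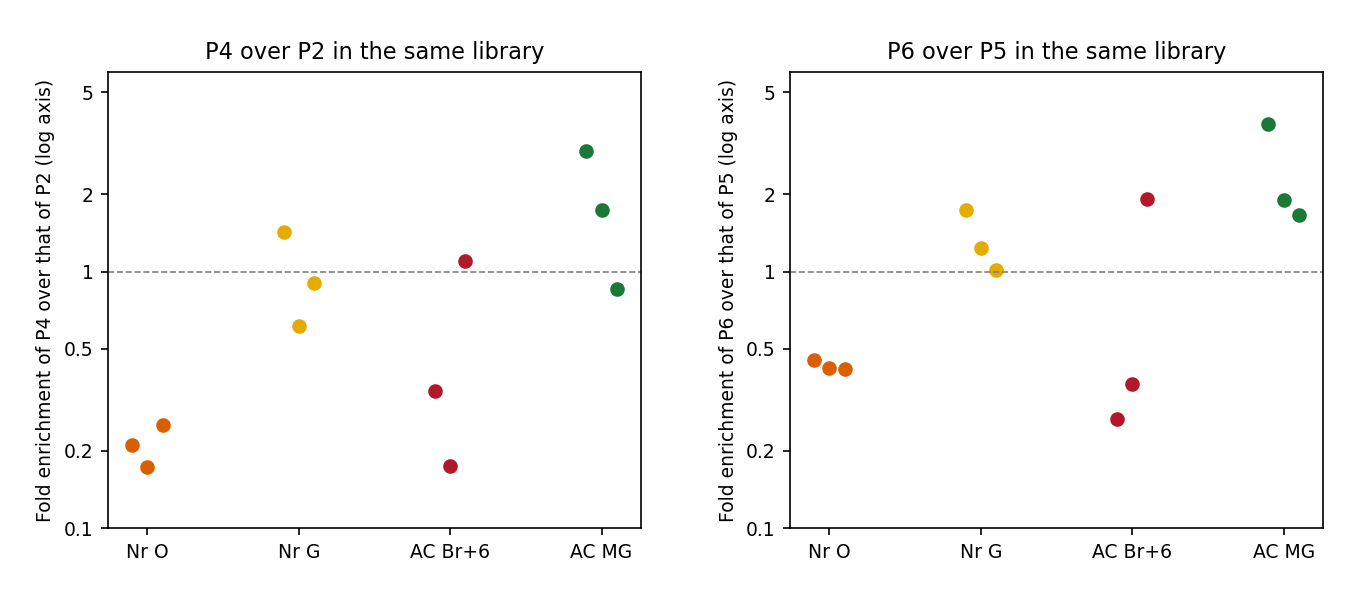
Fold enrichment of P4 over that of P2 (left) and of P6 over that of P5 (right) in the same library, on a log axis, by group (points are libraries, dashed line at 1). The Nr O points lie from 0.173 to 0.252 and from 0.415 to 0.452, and the AC Br+6 point near the green groups in both panels is replicate 3.

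Between genotypes few positions were separated. In green fruit 1 of 11 positions, P13, was higher in every Nr G than every AC MG library and 0 were lower, against 8.43% and 1.2% of 83 positions over the genome. In late fruit 2 of 10, P10 and P14, were higher in every Nr O than every AC Br+6 library and 0 were lower, against 5.13% and 2.56% of 78 positions. Without AC Br+6 replicate 3, P6 joined them, against 9.64% and 3.61% of 83. P10 (18821072 to 18821944) had 39.0, 36.5 and 31.8 in Nr O, against 29.2, 18.5 and 26.6 in AC Br+6. At P14 all these values lay just under 50, the highest in the lists, with 49.7 the lowest in Nr O and 49.65 the highest in AC Br+6, so its order is not read as a difference.

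Presence of a peak changed at few positions. P7 (18799801 to 18800717) was called in 3 of 3 Nr O and 0 of 3 Nr G libraries, with fold enrichments of 7.30, 4.32 and 8.55. It was also called in AC Br+6 replicate 1 (7.78) and in 0 of 3 AC MG libraries. P7 was the 1 cluster position gained in Nr O over Nr G, by at least 2 of 3 libraries against 0 of 3, where 0.811% of 863 positions of the genome were gained and 4.52% lost. P12 (18825525 to 18826923) was called in 0 of 3 Nr O and 2 of 3 AC Br+6 libraries, with 3.76 in replicate 1 and 18.0 in replicate 3. It was the 1 position lost in Nr O against AC Br+6, where 2.97% of 1180 positions were lost and 0.254% gained, and without AC Br+6 replicate 3 there were 0. Without AC Br+6 replicate 1, 1 position was gained and 0 lost, and with lists cut to equal length 3 were gained and 0 lost. The shares over the genome were not computed for these alternative settings, so their counts are not read as a result about the cluster. Between AC Br+6 and AC MG, and between Nr G and AC MG, 0 cluster positions were gained or lost. Over the genome 0.913% and 1.07% of 1861 positions were gained and lost in AC Br+6, and 1.08% and 1.98% of 1567 in Nr G.

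Over both genotypes P7 was called in 4 of 6 late and 0 of 6 green libraries. Its two-sided Fisher exact p was 0.0606 (adjusted p 1 over 113 positions of the genome called in 3 to 9 libraries), the lowest of the 5 cluster positions tested for stage. P8 (18808847 to 18810691, with Solyc11g027693) followed, in 6 of 6 late and 3 of 6 green libraries (exact p 0.182, adjusted p 1). By genotype the lowest exact p was 0.545 (adjusted p 1), at P7 and P12. No position of the cluster passed for stage or genotype, and 0 had an unadjusted p under 0.05. The 5 positions tested were called in 4, 8 or 9 libraries. With such counts no split of 6 against 6 libraries gives an exact p below 0.0606. The lack of a p under 0.05 was thus fixed in advance, and no conclusion is drawn from it. Over the genome 0 of 113 positions (0%) passed either test, with 0 (0%) for stage and 1 (0.885%) for genotype at an unadjusted p under 0.05. The smallest exact p that 6 against 6 libraries allow is 0.00216, for a position called in 6 libraries. It gives an adjusted p of 0.245 for a single position among 113. P7 was called in neither AC Br+6 replicate 2 nor replicate 3. Leaving out either of them gave an exact p of 0.0152 at P7 for stage. The adjusted p was 0.815 without replicate 2 and 0.545 without replicate 3.

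P7 and P4 shared a length. All 4 entries of P7 were 917 bases long with identical ends, and 9 of the 12 entries of P4, which lay upstream in the same circle, were also 917 bases long. Their sequences were not compared.

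The remaining positions ranged widely between libraries. P9 (18811875 to 18813305, with Solyc11g027693) was called in 11 libraries with 6.21 and 14.8 in Nr O replicates 1 and 2, against 40.6, 36.7 and 42.4 in Nr G. It had 8.85, 21.6 and 31.7 in AC Br+6, against 45.9, 41.4 and 29.4 in AC MG. P8 had 38.4, 30.1 and 36.4 in Nr O, against 10.03 in Nr G replicate 2, and 30.4, 22.3 and 12.2 in AC Br+6, against 9.10 and 14.1 in AC MG replicates 1 and 3. At P8 the late libraries were the higher ones, but AC Br+6 replicate 3 lay within the AC MG range.

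P1 was called in 11 libraries, with values from 3.13 in AC MG replicate 2 to 42.4 in AC Br+6 replicate 1, a 13.5-fold range. It ran from 5.75 to 18.5 in Nr O, 5.49 to 42.1 in Nr G, 33.1 to 42.4 in the 2 AC Br+6 libraries that called it, and 3.13 to 35.5 in AC MG. P11 (18823857 to 18825279) was called in 9 libraries at 3.84 to 12.03, except for 47.4 in AC MG replicate 1. P16 (18864561 to 18866234, with Solyc11g027770) was called in 8 libraries, 2 of each group, at 6.70 to 14.5. By the SD of log2 fold enrichment over the libraries that called them, P14 (0.01), whose values all lay just under 50, and P17 (0.18) varied least and P1 (1.32) and P13 (1.14) most.

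The order of the 8 constant positions was partly shared across libraries. P14, P15 and P17 held the first 3 ranks in all libraries but AC Br+6 replicate 2 and AC MG replicate 1. Below them the order moved more, and P4 for example ranked from 4 to 8. Spearman's rho between 2 libraries had a median of 0.833 over 66 pairs and ran from 0.238 to 1. Within Nr O it was 0.976 to 1, and within Nr G 0.881 to 0.976. Within AC Br+6 it was 0.476 to 0.833, and within AC MG 0.476 to 0.881. Between Nr O and AC MG it had a median of 0.619, and between AC Br+6 and AC MG one of 0.595 (0.238 to 0.976). All libraries share the same annotation and aligner, and 8 positions of 1 region are not independent, so no p is given.

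The number of cluster peaks hardly varied with group. It was 21, 23 and 20 in Nr O, 21, 21 and 21 in Nr G, 25, 20 and 24 in AC Br+6, and 21, 16 and 24 in AC MG. Late fruit averaged 22.2 ± 2.14 and green fruit 20.7 ± 2.58 (SD, n = 6 each), and the difference in mean log2 number was 0.11 ± 0.10 (SE). An exact permutation of libraries, two-sided as all below, gave p = 0.42, and adjustment over the 14 tests of number and share gave 0.84. Never-ripe averaged 21.2 ± 0.983 and wild type 21.7 ± 3.39, a log2 difference of -0.02 ± 0.10 (exact permutation p 0.94, adjusted p 1). The 4 comparisons of 3 against 3 libraries differed by -0.10 to 0.19 on the log2 scale, within the spread between replicates (exact permutation p 0.5 to 1).

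As a share of a library's peaks, the cluster weighed most in Nr O. It made up 15.2%, 12.6% and 12.6% of distinct peaks in Nr O, 5.08%, 7.98% and 5.33% in Nr G, 11.2%, 7.41% and 2.66% in AC Br+6, and 2.89%, 6.35% and 6.96% in AC MG. Nr O averaged 13.5% ± 1.51 against 6.13% ± 1.61 in Nr G and 7.09% ± 4.28 in AC Br+6 (SD, n = 3 each), and every Nr O library lay above every library of both. With 3 libraries on either side no exact permutation p can fall below 0.1, and both comparisons reached it (adjusted p 0.35).

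Over both genotypes the share was 10.3% ± 4.53 in late and 5.77% ± 1.77 in green fruit (SD, n = 6 each), a difference of 4.52 ± 1.98 percentage points (SE; exact permutation p 0.025, adjusted p 0.35). Lists were also cut to 138 peaks each, the length of the shortest list, by score and then, among equal scores, by fold enrichment. The difference was then 1.33 percentage points (exact permutation p 0.62, adjusted p 0.862). Equal scores were common: AC Br+6 replicate 3 had 228 peaks outside the cluster at the most common score, and AC MG replicate 1 had 204. In such lists the cut was largely by fold enrichment. Without AC Br+6 replicate 3, left out after its values were seen, the difference over whole lists was 5.63 (exact permutation p 0.005, adjusted p 0.07). This was the lowest p. With each library left out in turn, the exact permutation p ran from 0.005 to 0.085 (adjusted p 0.07 to 0.607). By genotype, with the stages pooled, the share was 9.81% ± 4.26 in Never-ripe and 6.25% ± 3.18 in wild type (difference 3.56 ± 2.17, exact permutation p 0.065, adjusted p 0.35), and without AC Br+6 replicate 3 the difference was 2.45 (exact permutation p 0.105, adjusted p 0.294). The shares moved with list length: Nr O lists held 138, 182 and 159 distinct peaks, against 413, 263 and 394 in Nr G, while the number of cluster peaks was 20 to 23 in Nr O and 21 in each Nr G library. With lists cut to 138 peaks the share of Nr O minus Nr G was 4.11 percentage points, against 7.34 with whole lists, and that of Nr O minus AC Br+6 was 6.52, against 6.38 (exact permutation p 0.1 in each). No test of the share passed adjustment. The libraries are of bulk fruit, where fewer cells of a type and less RNA per cell cannot be told apart.

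**Figure D4:**
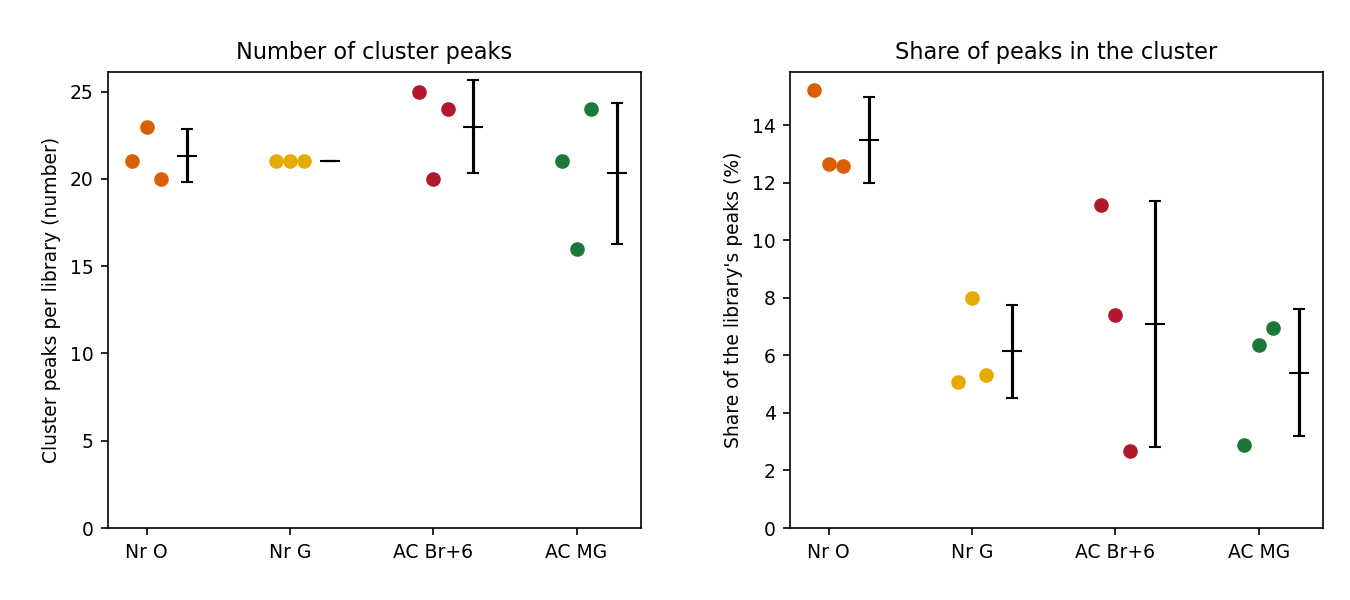
Left, number of cluster peaks in each library; right, the percent of the library's distinct circRNA and mRNA peaks that lay in the cluster. Points are libraries and black marks the mean ± SD of 3. The numbers run from 16 to 25 over the 12 libraries together, and the Nr O shares (12.6% to 15.2%) lie above those of the other 9 libraries.

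Set beside the other peaks of the same library, cluster peaks had a higher fold enrichment and were longer. The median fold enrichment of cluster peaks ran from 19.3 to 34.3 over libraries, against 11.97 to 21.9 for the other peaks. The difference in median log2 fold enrichment averaged 0.58 ± 0.42 (SD, n = 12) and was above 0 in 11 of 12 libraries, all but Nr O replicate 2 (exact permutation of signs, two-sided p 0.000977). Within the circRNA lists alone it was -0.01 ± 0.32 (exact p 0.92), above 0 in 7 of 12 libraries. Within the mRNA lists alone it was 0.33 ± 0.36 (exact p 0.00928), above 0 in 9 of 12 libraries. Of the cluster peaks 71.2% were circRNA entries, against 6.26% of the other peaks.

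The median cluster peak was 544 to 917 bases long in the 12 libraries and the median other peak 179 to 219.5 bases. The difference in median log2 length was 1.86 ± 0.23 (SD, n = 12), above 0 in 12 of 12 libraries (exact permutation of signs, two-sided p 0.000488, the smallest possible). Among circRNA peaks alone it was 1.13 ± 0.40 with the same exact p of 0.000488. Among mRNA peaks alone it was 0.08 ± 0.38 (exact p 0.497), and those entries lay within gene models. A score of 3100 (10 times the negative log10 of the p-value) was given to 62.6% of the cluster peaks and 30.7% of the others, a description without a test.

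**Figure D5:**
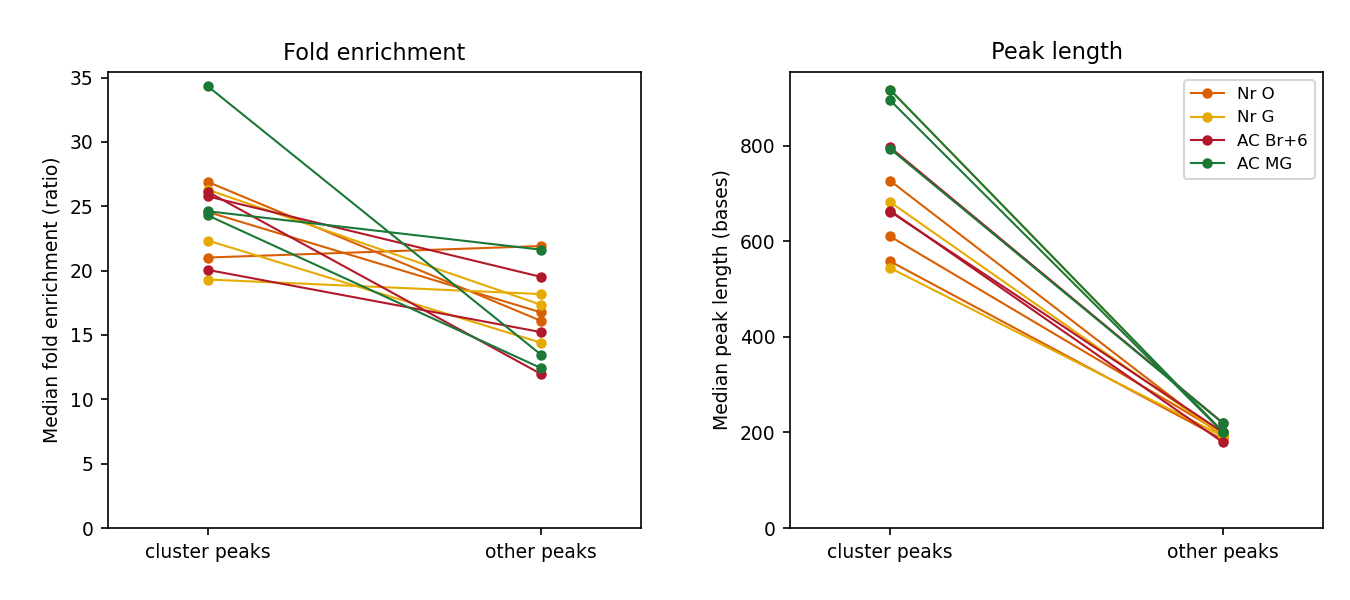
Median fold enrichment (left, ratio) and median peak length (right, bases) of cluster peaks and of all other circRNA and mRNA peaks of the same library, joined by a line for each of the 12 libraries and coloured by group. Every line falls to the right for length, and all but 1 (Nr O replicate 2) for fold enrichment.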

How the data were processed

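The deposited data used were 12 circRNA, 12 mRNA and 12 lncRNA peak lists, 1 of each kind for every IP library, matched through the names of the lists. Per the submitters' processing notes, reads were trimmed with cutadapt 1.9.3 and aligned with HISAT2 2.0.4. Peak names begin with MACS per the file headers, but its version, settings and control are not stated there. Fold enrichment is the authors' ratio for each deposited peak. The deposited score is, per the file headers, 10 times the negative log10 of the peak's p-value. The authors' FDR, in percent, was 100 for every peak and was not used. Depth is unknown, so no interval or floor based on it is given.

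Coordinates are given from base 1 on SL3.00, the build named by a scaffold in the lists. Peaks overlapping by at least 1 base in any libraries were joined into positions. Differences in the number (log2) and share of cluster peaks were tested by two-sided exact permutation of libraries, within genotype or stage for pooled contrasts (20 or 400 arrangements), with Benjamini-Hochberg adjustment over 14 tests. Presence at positions called in 3 to 9 libraries was tested by the two-sided Fisher exact test, adjusted over the genome. Differences within libraries were tested by exchanging signs (4096 arrangements). Scripts ran on Python 3.11.15 with SciPy 1.17.1 and were tested on simulated data.

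Positions named were those called in all 12 libraries, those gained or lost in a comparison, those of lowest exact p, the 3 highest by median fold enrichment and those with rRNA hosts; P1, P8, P9, P10, P11 and P16 complete the members. The members and lists were chosen with earlier results of these data known. The lncRNA lists were used only to look for peaks in the window, and the input libraries were not analysed here.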

Additional observations from a re-analysis of the deposited data

How the results depend on the processing

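No test of the cluster's peak number or share passed adjustment under any alternative, and the signs of several small differences turned. For peak number, the log2 differences turned with the stronger peaks by score (late minus green -0.22, Nr O minus Nr G -0.31, AC Br+6 minus AC MG -0.13, Nr G minus AC MG -0.0111) or by fold enrichment (late minus green -0.0844, Nr minus AC 0.0917, Nr O minus Nr G -0.33). With lists of equal length they turned to -0.0524 (late minus green), 0.83 (Nr minus AC), -0.59 (AC Br+6 minus AC MG), 1.36 (Nr O minus AC Br+6) and 1.07 (interaction of stage and genotype), and the share of AC Br+6 minus AC MG to -1.45 percentage points. The share of late minus green was then 1.33, against 4.52, and that of Nr O minus Nr G 4.11, against 7.34. With mRNA lists alone Nr O minus Nr G was -0.0135, and with merged positions Nr minus AC was 0.0130.

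With each library left out in turn, the difference in log2 number ran from 0.02 to 0.17 (late minus green), -0.10 to 0.0459 (Nr minus AC; above 0 without Nr O replicate 3, AC Br+6 replicate 1 or AC MG replicate 3), -0.0352 to 0.0656 (Nr O minus Nr G; -0.0352 without Nr O replicate 2), 0.03 to 0.32 (AC Br+6 minus AC MG), -0.10 to 0.20 (Nr G minus AC MG; -0.10 without AC MG replicate 2), -0.20 to -0.04 (Nr O minus AC Br+6) and -0.30 to -0.01 (interaction). The share ran from 3.49 to 5.63 (late minus green), 2.45 to 4.59 (Nr minus AC), 6.47 to 8.27 (Nr O minus Nr G), -0.364 to 3.91 (AC Br+6 minus AC MG; -0.364 without AC Br+6 replicate 1), -0.520 to 1.51 (Nr G minus AC MG; -0.191 without Nr G replicate 2, -0.520 without AC MG replicate 1), 4.17 to 8.44 (Nr O minus AC Br+6) and 3.43 to 7.71 (interaction).

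Presence of peaks depended on how positions were drawn. Gained and lost positions numbered 3 between Nr O and Nr G, 3 between AC Br+6 and AC MG and 3 between Nr G and AC MG with the same start and end required, and 3 (gained), 2 (lost) and 1 (lost) in lists of equal length, with 3 gained between Nr O and AC Br+6. With the stronger peaks by score there were 0 between Nr O and Nr G. Leaving out 1 library they were 1 to 2, 0 to 1, 0 to 1 and, between Nr O and AC Br+6, 0 to 2. The counts with the same start and end are of the cluster's 150 distinct entries in place of 17 positions. The shares over the genome were not computed for gained and lost positions under these alternatives, so the counts are not read as a rise in change. Positions in all 12 libraries numbered 1 of 150 with the same start and end, 4 of 17 with the stronger peaks by score and 3 of 8 in mRNA lists alone. For mRNA lists alone the share over the genome was not computed. Positions whose fold enrichments separated AC Br+6 and AC MG numbered 6 without AC Br+6 replicate 3, and those separating Nr O and AC Br+6 3. Cluster minus other peaks was -0.0112 (log2 fold enrichment, circRNA lists alone) and 0.0756 (log2 length, mRNA lists alone); leaving out 1 library it ran from 0.51 to 0.64 and from 1.83 to 1.895. Counting each MACS peak number once, an alternative chosen after seeing the data, changed no call.

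Replicate numbers were not shown to pair the libraries: deviations of same-numbered libraries from their group means correlated at -0.0686 to 0.117 over all positions. With the replicate number as a block, the late minus green difference in share was 4.52 percentage points (exact permutation p 0.0938, adjusted p 0.656), and 0 positions passed. The unknown depth and the 3 libraries per group limit what these lists can show.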
